A study of Mus musculus with 778 samples.

Results

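The genes described here encode the actin machinery that moves the meiotic spindle in the mouse oocyte, with the main actin of the cell and the proteins that branch and cut its filaments. The 10 members were named by gene symbol: the straight-filament nucleators *Fmn2*, *Spire1* and *Spire2*, the motors *Myo5b* and *Myo10*, the Arp2/3 subunits *Actr2*, *Actr3* and *Arpc2*, the filament-severing factor *Cfl1* and the actin gene *Actb*. All 10 were found among the 23201 genes of a table of unique molecular identifier (UMI) counts, in which each cDNA molecule is counted once. The study picked single oocytes of female wild-type ICR mice by hand and grouped them by diameter into 5 stages. The non-growing oocytes (NGO, 46 cells) were under 20 μm wide and came from mice 3 to 4 days old. The other oocytes came from mice 3 to 4 weeks old: growing oocytes I (GO1, 51 cells, 30 to 45 μm), growing oocytes II (GO2, 26 cells, 50 to 55 μm), growing oocytes III (GO3, 44 cells, 60 to 65 μm) and fully grown oocytes (FGO, 56 cells, over 70 μm). Oocyte growth and the age of the mouse therefore cannot be told apart between NGO and any other stage.

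Before the first meiotic division the spindle of the mouse oocyte forms near the centre of the cell and moves to the cortex, so that a large egg and a small polar body result. It moves through a dynamic mesh of actin filaments in the cytoplasm. The mesh is built by Formin-2, which elongates unbranched filaments, together with Spire proteins, which gather actin monomers to start them. Filaments start from vesicles that carry Rab11 and myosin V, while the Arp2/3 complex makes branched actin, which in oocytes forms a thick layer under the cortex over the spindle.

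For each stage, the UMIs of all its cells were added up gene by gene and given as counts per 1000000 UMIs (CPM). CPM is a share of the recovered RNA molecules, not a number of copies per oocyte. The 4 RNA libraries are labelled as batches, and no label ties a cell to 1 of them or to a mouse. Each stage is therefore 1 pooled sample, and no test between stages was made. The labels do not say how the stages were spread over the batches, so stage and batch cannot be told apart. A gene is said to rise or fall between 2 stages where its CPM was at least 2 times apart and reached 10 CPM in the higher one. Intervals are exact 95% limits that cover the counting of molecules and nothing else. The stage totals ran from 24976634 UMIs in GO2 to 64311908 in FGO, and the median cell from 110146 UMIs in GO1 to 972294 in GO3. In GO1 the 10 deepest cells held 80.4% of the UMIs, so its sums describe few cells, and 24 of its 51 cells had under 100000 UMIs. All 12 oocyte markers examined, among them zona pellucida genes and *Gdf9*, reached 10 CPM in every stage.

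Members moved in opposite directions at the onset of growth, as did the genes of the whole table. From NGO to GO1, 3 of the 9 members that could be called rose (*Fmn2*, *Spire1*, *Actr2*), where 20.6% of all 8527 genes rose. Another 3 fell (*Actr3*, *Arpc2*, *Actb*), where 25.7% of all genes fell. In all, 46.3% of the genes were called in either direction in this step. *Spire2* stayed under 10 CPM in every stage and could not be called. The median log2 change of CPM + 1 was −0.27 over the 9 members and −0.14 over all genes.

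**Figure D1:**
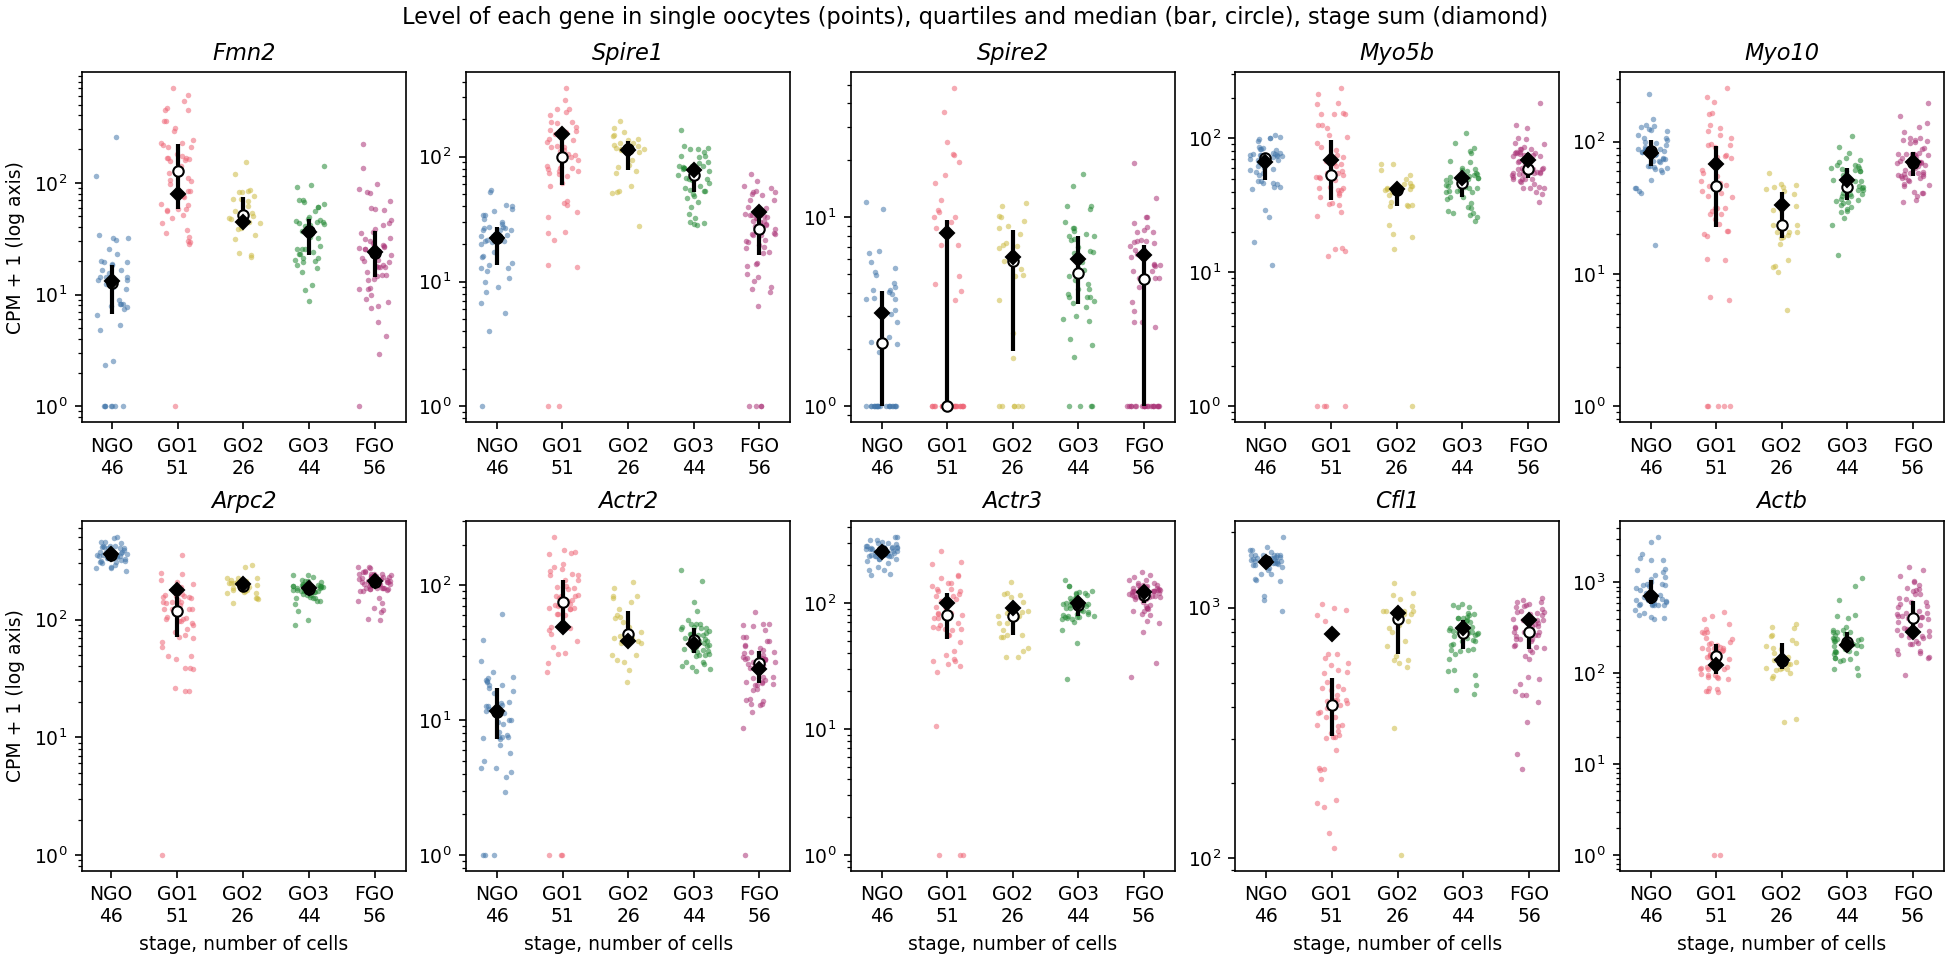
CPM + 1 of each gene in single oocytes (points, log axis) by stage, with the number of cells under each stage name. Bars run from the first to the third quartile of the cells, circles are medians and diamonds are the sums over the stage. The median cell of *Fmn2*, *Spire1* and *Actr2* is lowest in NGO, and that of *Arpc2*, *Actr3*, *Cfl1* and *Actb* is highest there.

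*Fmn2* (NCBIM37 chromosome 1, 176431956 to 176752848, plus strand), the formin of the cytoplasmic mesh, was measured at a summed 12.1 CPM in NGO and 79.2 in GO1, then 43.8 in GO2, 35.2 in GO3 and 22.9 in FGO. Single cells ran from 0 to 257 CPM with a median of 11.6 in NGO, from 0 to 702 with a median of 125.4 in GO1, from 20.8 to 153.1 with a median of 50.9 in GO2, from 7.78 to 138.9 with a median of 36.1 in GO3, and from 0 to 223.1 with a median of 22.4 in FGO. GO1 was highest by sum and by median and each later stage was lower, while the ranges of the cells overlapped throughout. *Fmn2* rose 6.52-fold from NGO to GO1 (95% interval 5.78 to 7.38) and fell 3.46-fold from GO1 to FGO (3.24 to 3.70), a comparison in which 9.03% of 7873 genes fell and 17% were called in either direction. FGO was 1.88-fold above NGO (1.67 to 2.14), which did not reach 2-fold. The middle 50% of the cells did not overlap between NGO and GO1 or between GO1 and FGO, and overlapped between NGO and FGO.

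*Spire1*, which binds actin monomers and works with Formin-2, had a like course. Its summed level was 21.3 CPM in NGO and 150.8 in GO1, then 111.9 in GO2, 77.4 in GO3 and 35.4 in FGO. Its cells ran from 0 to 53.6 CPM in NGO (median 21.5), from 0 to 353 in GO1 (median 97.7), from 27.1 to 194 in GO2 (median 114.2), from 27.3 to 161 in GO3 (median 70.8) and from 0 to 71.5 in FGO (median 25.5). By sums GO1 was highest, whereas by the median cell GO2 was, and the middle 50% of the cells of these stages overlapped. *Spire1* rose 7.08-fold from NGO to GO1 (6.47 to 7.76). It fell 2.19-fold from GO3 to FGO (2.08 to 2.31), as the 1 member that fell in that step, where 3.54% of 7622 genes fell and 2.41% rose (5.96% in all), and 4.27-fold from GO1 to FGO (4.05 to 4.49). FGO remained 1.66-fold above NGO by sums (1.51 to 1.83), but with every cell thinned to 20000 UMIs the log2 change was −0.24.

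*Spire2* (chromosome 8, 125856613 to 125893415, plus strand) is the second Spire gene of the mouse and acts with *Spire1* in oocytes. It was measured at 2.10 CPM in NGO, from 53 UMIs, and at 7.25, 5.16, 5.02 and 5.35 CPM in the stages GO1 to FGO, with 344 UMIs in FGO. The median cell was at 1.17 CPM in NGO and 0 in GO1, then 4.90 in GO2, 4.08 in GO3 and 3.74 in FGO, with highest cells between 10.9 CPM in GO2 and 47.2 in GO1. GO1 thus had the highest sum and the lowest median cell, and 1 UMI in its median cell is worth 9.08 CPM. The GO1 sum was 3.45 times the NGO sum (2.53 to 4.76), a difference left uncalled because neither stage reached 10 CPM. The 4 later stages lay within a ratio of 1.404 in each step between neighbours.

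**Figure D2:**
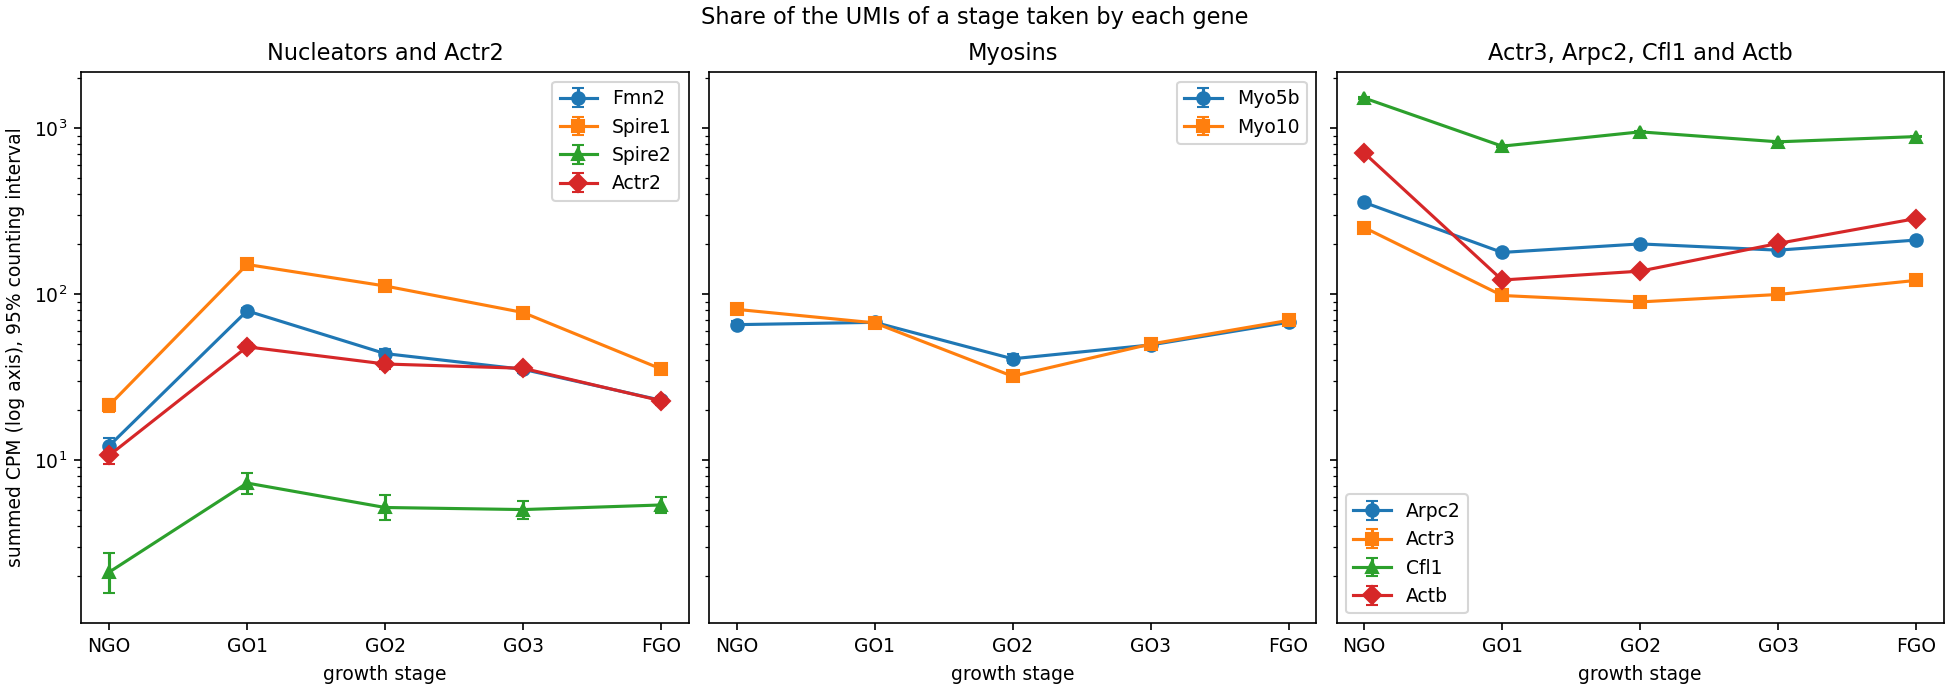
Summed CPM (log axis) of the 10 genes by growth stage with 95% counting intervals, most of them smaller than the symbols. *Fmn2*, *Spire1* and *Actr2* peak in GO1, *Myo5b* and *Myo10* are lowest in GO2, and *Actb* is lowest in GO1 and climbs to 285 CPM in FGO.

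The motors did not share this course. *Myo5b* encodes a myosin V, the class that moves Rab11 vesicles along actin. It was measured at 65.4 CPM in NGO and 67.5 in GO1, then 40.7 in GO2, 49.3 in GO3 and 67.6 in FGO, with median cells at 70.4, 52.6, 40.4, 45.1 and 58.3 CPM. The sum changed 1.03-fold from NGO to GO1 (0.966 to 1.10) and 1.001-fold from GO1 to FGO (0.947 to 1.06), counting intervals that hold a ratio of 1 and lie far inside 2-fold. Other scalings, averages and choices of cells gave a wider range. It ran from 0.747-fold to 1.36-fold from NGO to GO1 and from 0.823-fold to 1.28-fold from GO1 to FGO.

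*Myo10* (chromosome 15, 25552280 to 25743428, plus strand), an unconventional myosin that links actin bundles to the membrane and to microtubules, was measured at 80.9 CPM in NGO and 67.1 in GO1, then 31.9 in GO2, 50.0 in GO3 and 69.4 in FGO. Its median cells were at 83.4, 44.9, 22.6, 44.7 and 68.3 CPM, so that GO2 was lowest and NGO highest on both measures. *Myo10* fell 2.10-fold from GO1 to GO2 (1.93 to 2.28), the 1 member to do so, where 3.03% of 7356 genes fell (3.14% were called in either direction). The middle 50% of the cells of GO1 and GO2 overlapped, and GO1 cells ran from 0 to 253 CPM. The call was lost under 4 alternatives: the log2 change of −1.07 became −0.88 with DESeq2 size factors, −0.90 with TMM factors, −0.99 as the median over cells and −0.91 without the 10 deepest cells. From GO2 to GO3 none of the 9 members was called, where 4.35% of 7334 genes were (3.34% rose and 1.01% fell).

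Within the Arp2/3 complex, whose subunits are built into 1 particle, the RNAs of the members moved apart. *Actr2* (chromosome 11, 19962307 to 20012916, minus strand) encodes Arp2, which with Arp3 forms the start of a new branch. Its summed level was 10.6 CPM in NGO and 48.1 in GO1, then 37.9 in GO2, 35.7 in GO3 and 22.7 in FGO. Its cells ran from 0 to 60.5 CPM in NGO (median 10.4), from 0 to 228 in GO1 (median 74.2), from 18.2 to 104.99 in GO2 (median 42.4), from 22.2 to 128.95 in GO3 (median 38.2) and from 0 to 61.98 in FGO (median 25.4). The order of the stages was that of *Fmn2*, and the neighbours GO2 and GO3 did not differ beyond the counting interval of their ratio (0.870 to 1.02). *Actr2* rose 4.52-fold from NGO to GO1 (3.96 to 5.17) and fell 2.11-fold from GO1 to FGO (1.96 to 2.28). It was also 2.14-fold higher in FGO than in NGO (1.88 to 2.44), the 1 member to rise over the whole course, where 11.3% of 8132 genes rose.

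*Actr3* (chromosome 1, 127289483 to 127332067, minus strand), which encodes Arp3, was measured at 252 CPM in NGO and 98.05 in GO1, then 89.7 in GO2, 99.4 in GO3 and 120.9 in FGO. Its cells ran from 166 to 334 CPM in NGO (median 257), from 0 to 259 in GO1 (median 79.8) and from 24.8 to 176 in FGO (median 115.6). *Actr3* fell 2.57-fold from NGO to GO1 (2.46 to 2.69) and ended 2.08-fold below NGO (2.02 to 2.15), where 16% of all genes fell. The latter call was lost with DESeq2 size factors (1.97-fold) and with TMM factors (1.85-fold). NGO stood above the 4 later stages, which lay between 89.7 and 120.9 CPM.

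*Arpc2* (chromosome 1, 74283071 to 74314783, plus strand), a subunit of the core that holds both actin-related proteins, was measured at 357 CPM in NGO and 178 in GO1, then 201 in GO2, 184 in GO3 and 212 in FGO. Median cells were at 355, 117.1, 193, 182 and 207 CPM. It fell 2.004-fold from NGO to GO1 (1.93 to 2.08), right at the limit, and the call was lost with DESeq2 size factors (log2 change −0.90), with TMM factors (−0.84) and in cells of at least 100000 UMIs (−0.97). Its level in GO1 differed with depth: the shallower 50% of the cells gave 102.2 CPM and the deeper 50% gave 182, near the later stages.

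A ratio of members within the same cells does not depend on how a stage is scaled. For every 100 UMIs of *Actr3* there were 4.22 UMIs of *Actr2* in NGO (3.72 to 4.77), 49.03 in GO1 (45.8 to 52.4), 42.2 in GO2 (39.1 to 45.6), 35.9 in GO3 (33.98 to 37.9) and 18.8 in FGO (17.8 to 19.9). The ratio jumped at the onset of growth and then declined stage by stage without going back to the NGO value. The middle 50% of the cells lay from 2.28 to 6.05 in NGO, from 50.96 to 151.6 in the 48 GO1 cells with an *Actr3* UMI, and from 15.1 to 29.5 in FGO. Shallow and deep cells differed here too, at 113.8 against 45.8 in GO1 and at 4.24 against 4.21 in NGO, so the NGO value lay below both GO1 values. Against *Arpc2* the counts of *Actr2* were 2.98 per 100 in NGO and 26.97 in GO1, then 18.9 in GO2, 19.4 in GO3 and 10.7 in FGO.

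Between *Fmn2* and *Spire1* the ratio of the sums varied less. Per 100 UMIs of *Spire1* there were 56.98 UMIs of *Fmn2* in NGO (49.4 to 65.7), 52.5 in GO1 (49.8 to 55.4), 39.1 in GO2 (36.4 to 41.95), 45.4 in GO3 (42.9 to 48.1) and 64.7 in FGO (60.6 to 69.1). By sums this ratio stayed within 2-fold while either gene alone changed over 6-fold. In the median cell with a *Spire1* UMI it ran from 49.7 in GO2 to 100 in GO1. Shallow and deep cells of GO1 lay further apart than the stages, at 260.4 and 45.4. Per 100 UMIs of *Myo5b* there were 18.6 UMIs of *Fmn2* in NGO, 117.3 in GO1 (110.1 to 124.9), 107.5 in GO2 (98.6 to 117.2), 71.3 in GO3 and 33.9 in FGO. The counts of *Spire1* relative to *Myo5b* were 32.6 per 100 in NGO, 223.3 in GO1 (211.2 to 236.2), 274.8 in GO2 (255.7 to 295.6), 156.9 in GO3 and 52.3 in FGO. By sums, both nucleators were thus higher against the vesicle motor in GO1 and GO2 than in the other stages, with *Spire1* highest in GO2. In the median cell *Spire1* stood at 133.3 in GO1, 269.6 in GO2 and 162.9 in GO3, so GO1 was below GO3. *Fmn2* stood at 200 in GO1, 152.4 in GO2 and 69.9 in GO3 in the median cell.

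*Cfl1* (chromosome 19, 5490485 to 5494029, plus strand) encodes cofilin, which cuts actin filaments and returns their monomers. It was measured at 1522 CPM in NGO and 779.9 in GO1, then 951 in GO2, 828 in GO3 and 891 in FGO. Its cells ran from 969 to 1916 CPM in NGO (median 1530), from 109.2 to 1028 in GO1 (median 408), from 102.04 to 1257 in GO2 (median 897), from 453 to 1032 in GO3 (median 791) and from 226 to 1089 in FGO (median 801). The GO1 sum was 1.95-fold below NGO (1.92 to 1.98) and so was not called, but the median GO1 cell lay far below the sum, and the log2 change of −0.96 became −1.78 as the mean over cells and −1.91 as the median over cells.

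*Actb* (chromosome 5, 143664794 to 143668433, minus strand), which encodes cytoplasmic β-actin, showed the greatest fall of the 10 genes at the onset of growth. The sums were 710.2 CPM in NGO and 121.6 in GO1, then 137.5 in GO2, 202 in GO3 and 285 in FGO. Single cells ran from 392 to 3185 CPM in NGO (median 690.2), from 0 to 470.3 in GO1 (median 154.2), from 27.97 to 345 in GO2 (median 136.6), from 93.8 to 1126 in GO3 (median 219) and from 94.6 to 1463 in FGO (median 401). NGO was highest, and the sums climbed from GO1 to FGO, with overlapping cells. *Actb* fell 5.84-fold from NGO to GO1 (5.63 to 6.07) and rose 2.35-fold from GO1 to FGO (2.26 to 2.44), a comparison in which 7.98% of all genes rose. It stayed 2.49-fold lower in FGO than in NGO (2.44 to 2.54), a call lost with the mean over cells (1.98-fold) and the median over cells (1.72-fold). Per 100 UMIs of *Actb* there were 1.71 UMIs of *Fmn2* in NGO and 65.2 in GO1, then 31.8 in GO2, 17.4 in GO3 and 8.02 in FGO.

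Depth moved with the level of several members inside a stage. In FGO the shallower 50% of the cells gave 608 CPM of *Actb* and the deeper 50% gave 230.1, and the Spearman correlation of *Actb* CPM with UMIs per cell was −0.86 there, −0.69 in GO3 and −0.76 in NGO, but 0.03 in GO1. Over all genes of at least 10 CPM, 90% of such correlations lay between −0.49 and 0.68 in FGO, so *Actb* lay outside. *Fmn2* gave 249.5 CPM in the shallow and 69.8 in the deep cells of GO1, and 70.1 against 38.5 in GO2, where its correlation with depth was −0.77. *Actr2* gave 100.1 against 45.2 CPM in GO1. Among all genes, 28.4% of 7283 were at least 2-fold apart between shallow and deep cells of GO1, against 0.462% of 7575 in NGO. *Cfl1* went the other way, with 336 against 804 CPM in GO1 and correlations between 0.20 and 0.74. In shallow and in deep cells alike GO1 stayed above NGO for *Fmn2* and *Actr2*, and below it for *Actb*. Each stage was split at its own median cell, at 540432 UMIs in NGO and 110146 in GO1. The shallow or deep cells of these stages are therefore not matched in depth. *Actb* gave 984 CPM in shallow and 619 in deep cells of NGO, and 197 and 117.4 in those of GO1. The part of depth in the differences between stages was not tested.

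**Figure D3:**
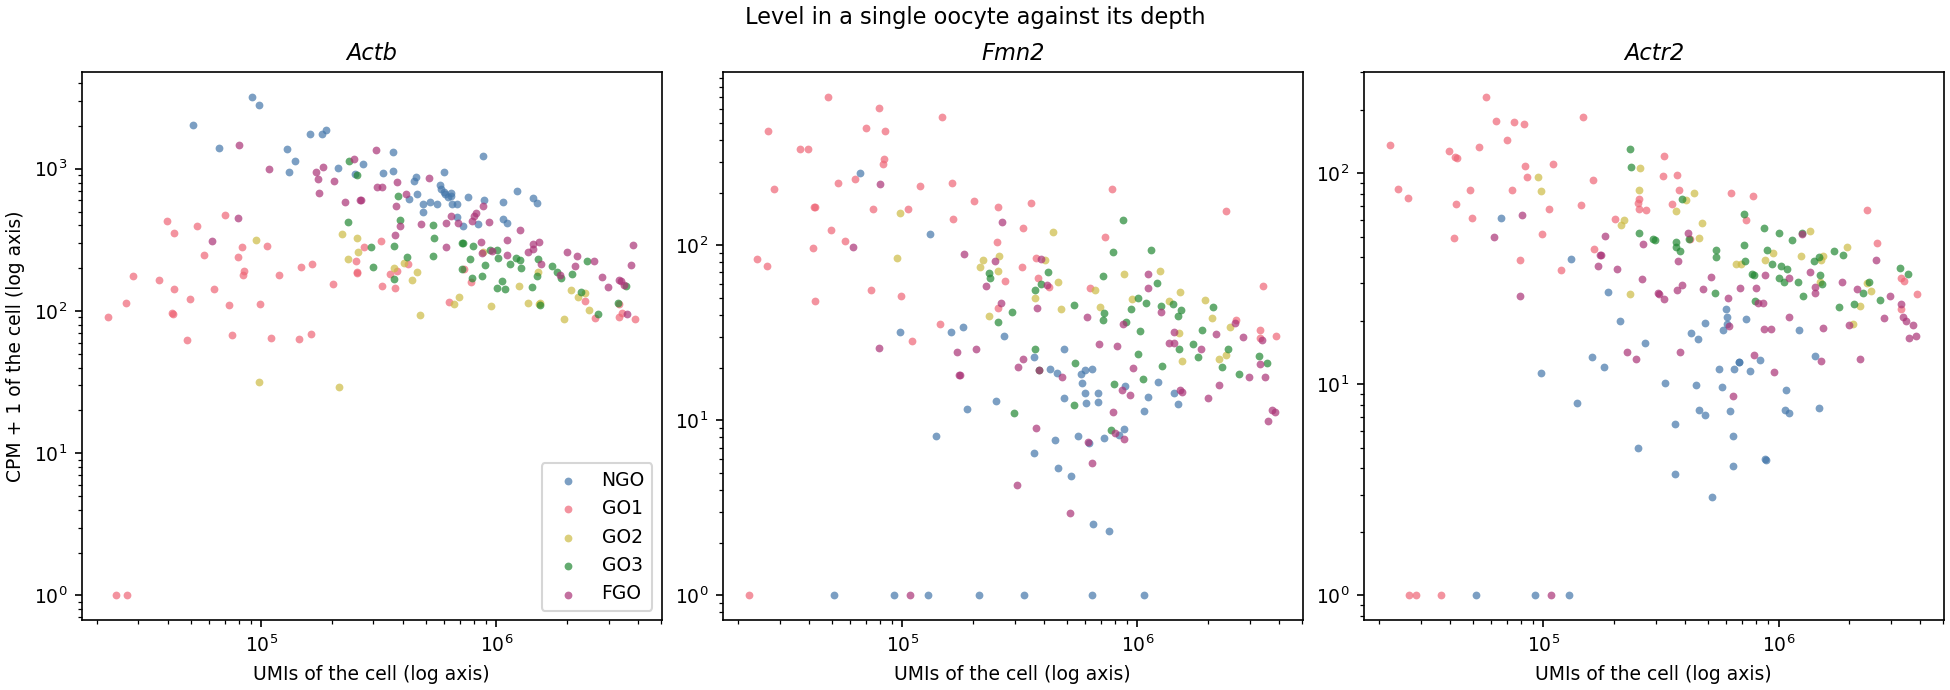
CPM + 1 of *Actb*, *Fmn2* and *Actr2* in single oocytes (log axis) against the UMIs of the cell (log axis), coloured by stage. *Actb* declines with depth in NGO, GO3 and FGO, while NGO cells lie above most GO1 cells of like depth, and the order is the reverse for *Fmn2* and *Actr2*.

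Members were also compared pair by pair from cell to cell within the stages. Of the 45 pairs of members, 10 had a rank correlation of the same sign in all 5 stages once the rank of depth was removed, 6 positive and 4 negative. *Fmn2* and *Actr2* correlated at 0.13 to 0.53, *Arpc2* and *Actr3* at 0.10 to 0.43, *Arpc2* and *Cfl1* at 0.06 to 0.58, and *Myo5b* and *Myo10* at 0.09 to 0.46. *Actr2* and *Cfl1* correlated at −0.60 to −0.01. *Actr2* and *Actr3*, whose products join in 1 particle, lay between −0.22 and 0.02. *Fmn2* and *Spire1* lay between −0.06 and 0.30 over 26 to 56 cells a stage. These values are descriptions over cells of shared libraries, and most are weak. The share of same-sign pairs among other genes was not computed, so the count of 10 is not a result about the members.

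The genes around the members were taken as lists by function. For comparison with the counts in these lists, 20.6% of all genes rose and 25.7% fell from NGO to GO1. From GO1 to FGO 7.98% rose and 9.03% fell, and from NGO to FGO 11.3% rose and 16% fell. Of the 10 Arp2/3 subunits, 9 could be called from NGO to GO1, of which 2 rose and 4 fell, with a median log2 change of −0.94 against −0.14 for all genes. Besides *Actr2*, *Arpc3* rose, from 64.3 to 130.3 CPM. Besides *Actr3* and *Arpc2*, *Arpc1a* fell from 117.3 to 26.5 CPM and *Arpc5* from 113.8 to 52.4 CPM. With TMM factors 2 rose and 2 fell, and with the mean over cells 1 rose and 5 fell, so the mixed direction stood and the counts did not. From GO1 to FGO, 1 of the 9 fell (*Actr2*) and 0 rose by this rule of size.

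Among the proteins that switch the complex on, 11 could be called from NGO to GO1, of which 3 rose and 3 fell, with a median log2 change of −0.14. *Cttn*, which encodes cortactin, fell 6.54-fold to 9.38 CPM in GO1 and rose again to 21.3 CPM in FGO. Genes of the WAVE complex, which activates Arp2/3 at membranes, moved both ways: *Cyfip2* rose from 1.67 to 12.1 CPM and *Nckap1* from 9.60 to 19.8 CPM, whereas *Brk1* fell from 169 to 62.5 CPM and *Abi2* from 20.4 to 8.30 CPM. *Whamm*, an activator on internal membranes, rose 3.41-fold to 25.98 CPM. *Whamm* and *Cyfip2* fell from GO1 to FGO, to 9.07 and 2.63 CPM.

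Of 7 formins that could be called, 3 rose and 0 fell from NGO to GO1, with a median log2 change of 0.87. In this step 20.6% of all genes rose and 25.7% fell. Besides *Fmn2*, *Diaph1* rose from 20.7 to 54.9 CPM and *Fhod3* from 71.6 to 190.0 CPM, both makers of unbranched filaments. From GO1 to FGO only *Fmn2* of the 7 fell, where 9.03% of all genes fell. All 4 callable Spire and WH2-domain genes rose from NGO to GO1, with a median log2 change of 2.11: besides *Spire1* these were *Lmod3*, a leiomodin nucleator, from 2.86 to 38.6 CPM, *Cobl*, a nucleator with WH2 domains, from 3.61 to 11.6 CPM, and its relative *Cobll1* from 14.9 to 36.6 CPM. From GO1 to FGO 3 of the 4 fell, *Spire1*, *Lmod3* (to 11.96 CPM) and *Cobl* (to 4.45 CPM). With the mean over cells 3 could be called and rose, and under the median over cells 1 formin rose and 1 fell. *Fmn2*, *Spire1* and *Actr2* are in these lists by choice, so the lists are no independent view of them.

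**Figure D4:**
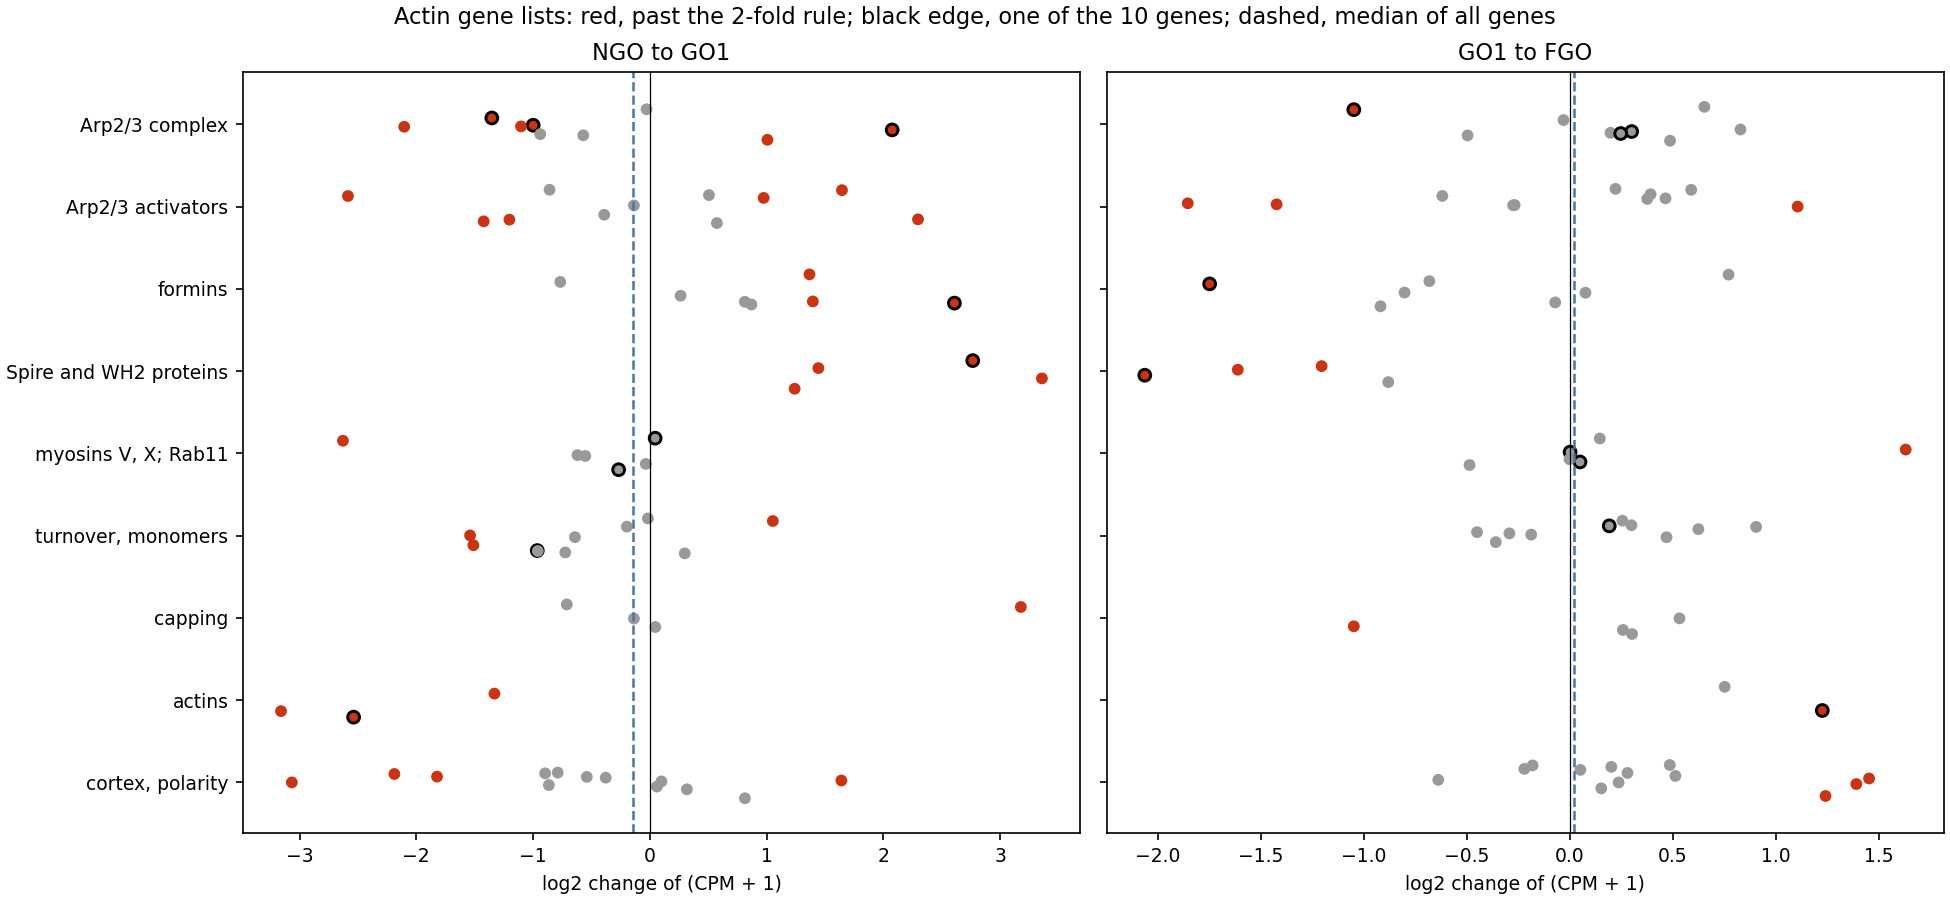
Log2 change of CPM + 1 of each callable gene in 9 actin lists from NGO to GO1 and from GO1 to FGO. Red points passed the 2-fold rule, black edges mark the 10 members and the dashed line is the median of all genes, at −0.14 and 0.02. Spire and WH2 genes lie to the right of it in the first comparison and to the left in the second. The 3 actins callable in the first comparison lie to its left, and the 2 callable in the second to its right. *Actg2*, under 10 CPM in both GO1 and FGO, is absent from the second.

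All 3 callable actin genes fell from NGO to GO1, with a median log2 change of −2.54, where 25.7% of all genes fell. Besides *Actb*, *Actg1*, the cytoplasmic γ-actin, fell from 1121 to 124.6 CPM, and *Actg2*, the enteric smooth muscle γ-actin, fell from 22.9 to 8.49 CPM. All 3 were also lower in FGO than in NGO, with *Actg1* at 210.4 CPM and *Actg2* at 2.35 CPM. Among 10 callable genes for monomer binding and turnover, 1 rose and 2 fell: *Twf2*, a twinfilin, rose 2.11-fold, *Pfn1*, which encodes profilin, fell from 826 to 284 CPM, and *Tmsb10*, a thymosin that holds monomers, fell from 5448 to 1911 CPM. The median of this list was −0.68, and under the mean over cells 0 rose and 4 fell. *Eps8*, which caps and bundles filaments, was 1 of 4 callable capping genes to rise, from 6.79 to 69.5 CPM, and fell to 33.1 CPM in FGO.

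Of 6 callable myosin V, myosin X and Rab11 vesicle genes, 0 rose and 1 fell from NGO to GO1, with a median log2 change of −0.41. *Rab11b*, a GTPase of recycling vesicles, fell from 220.3 to 34.8 CPM and rose from GO1 to FGO, to 109.8 CPM. Of 13 callable genes of the cortex and of spindle polarity, 1 rose, *Anln* (36.1 to 114.6 CPM), which encodes the scaffold anillin, and 3 fell. These were *Ran* (1425 to 312 CPM), whose product signals from chromatin to the cortex, the GTPase gene *Rhoa* (265 to 74.3 CPM) and the myosin light chain gene *Myl12b* (152.6 to 17.3 CPM). From GO1 to FGO 3 rose and 0 fell: *Ran* to 739 CPM, *Myl12b* to 47.1 CPM and the non-muscle myosin gene *Myh10* from 26.3 to 73.7 CPM. From NGO to FGO 2 of the 13 rose, where 11.3% of all genes did, and 2 fell, where 16% did. *Mos*, the kinase that drives the meiotic MAP kinase pathway, rose from 360.0 to 747.5 CPM and *Anln* to 73.3 CPM, while *Rhoa* fell to 106.4 and *Myl12b* to 47.1 CPM.

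The promoters of members that moved in opposite directions from NGO to GO1 are set side by side, each 250 bases before and 50 after the gene start in RefSeq on GRCm38.p6, 5′ to 3′ along the gene. CCAAT on either strand is in capitals. *Fmn2* (chr1:174501575-174501874, plus strand) and *Actr2* (chr11:20112902-20113201, minus strand) rose, and *Actr3* (chr1:125435678-125435977, minus strand) and *Arpc2* (chr1:74236267-74236566, plus strand) fell.
Fmn2: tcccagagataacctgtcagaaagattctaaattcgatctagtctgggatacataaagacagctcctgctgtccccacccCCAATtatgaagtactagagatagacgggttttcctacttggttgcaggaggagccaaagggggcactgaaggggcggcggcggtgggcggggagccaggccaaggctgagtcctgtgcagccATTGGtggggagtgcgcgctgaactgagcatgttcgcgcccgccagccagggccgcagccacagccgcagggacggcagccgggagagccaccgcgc
Actr2: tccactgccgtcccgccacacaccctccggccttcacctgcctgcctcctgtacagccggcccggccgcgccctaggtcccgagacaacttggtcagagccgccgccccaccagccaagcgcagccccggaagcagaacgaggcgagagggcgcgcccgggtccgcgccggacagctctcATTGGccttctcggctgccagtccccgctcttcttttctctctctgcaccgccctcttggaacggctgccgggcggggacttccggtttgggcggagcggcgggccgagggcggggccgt
Actr3: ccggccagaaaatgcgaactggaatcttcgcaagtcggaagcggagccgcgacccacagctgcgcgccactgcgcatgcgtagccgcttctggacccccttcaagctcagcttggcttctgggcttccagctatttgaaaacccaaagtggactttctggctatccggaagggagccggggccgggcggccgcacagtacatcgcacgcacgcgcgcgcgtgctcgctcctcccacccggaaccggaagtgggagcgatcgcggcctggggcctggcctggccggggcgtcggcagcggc
Arpc2: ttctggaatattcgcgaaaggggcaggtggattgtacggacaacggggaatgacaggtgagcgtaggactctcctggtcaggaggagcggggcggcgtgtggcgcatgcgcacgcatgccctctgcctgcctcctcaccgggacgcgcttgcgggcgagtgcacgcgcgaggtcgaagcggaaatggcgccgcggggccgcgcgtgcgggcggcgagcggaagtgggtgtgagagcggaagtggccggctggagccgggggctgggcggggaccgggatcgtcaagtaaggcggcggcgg
CCAAT stood in both promoters whose genes rose, with 2 copies in *Fmn2* and 1 in *Actr2*, and in neither whose genes fell. It was found in 37.4% of all 32851 promoters of this length, so the split over these 4 windows is a description only. Of the promoters not shown, that of *Cfl1* held 1 copy and that of *Spire2* 0, which goes against the split. The *Cfl1* sum was 1.95-fold lower in GO1 than in NGO and the *Spire2* sum 3.45-fold higher, both uncalled. The 2 entries of *Myo10* held 1 and 0 copies. GGGCGG, the GC box, was present on either strand in all 4 printed windows, with 2 copies in *Fmn2*, 5 in *Actr2*, 1 in *Actr3* and 3 in *Arpc2*, and in 35.7% of all promoters. TATAAA was in none of the 4 and in 13.6% of all promoters. The E-box CANNTG was absent from *Fmn2*, present in the other three, and found in 72.3% of all promoters. The table held 7 of the 10 members. *Actb*, *Spire1* and *Myo5b* have no printed sequence.

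The profiles nearest to those of the mesh nucleators were found by the root mean square difference of log2(CPM + 1) over the 5 stages after each gene was centred on its mean, among 8671 genes. Those nearest to *Fmn2* were *Gad2* (0.109), *Ppp2r5a* (0.112) and *B4galt6* (0.113), with a median of 0.966 over all genes. *B4galt6* was measured at 12.7 CPM in NGO and 88.4 in GO1, then 43.1 in GO2, 43.5 in GO3 and 26.9 in FGO. Those nearest to *Spire1* were *Lef1* (0.0963), *Satb1* (0.108) and *6330410L21Rik* (0.132), with a median of 1.12, and those nearest to *Spire2* were *Il2rb* (0.0165), *Arl13b* (0.0531) and *Igsf11* (0.0574), with a median of 0.610. The likeness rests on 5 values per gene, and the genes were picked for small distances, so their place under the median is no result. In NGO *Gad2* was at 1.27 CPM, *Ppp2r5a* at 0.83 and *6330410L21Rik* at 1.23, where the added 1 narrows their changes.

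Markers of other ovarian cells were low by stage sums, though not in every single cell. The 15 granulosa markers summed to 23.2 CPM in NGO and to 40.5 to 48.1 CPM in the later stages, with 0 markers at 10 CPM in NGO and 1 or 2 in each later stage. The 2 in GO1 were *Cyp19a1* and *Nr5a2*. The highest single cell had a granulosa sum of 302 CPM in GO1 (median cell 40.5) and of 225 in FGO (median cell 26.5). The 9 markers of stroma and theca summed to 8.85 CPM in NGO and to 2.40 to 3.85 CPM later, with 1 NGO cell at 251 CPM (median cell 1.67). The 7 markers of blood and endothelium summed to 4.64 CPM in NGO and to 26.7 to 48.8 CPM later, of which 1, *Pecam1*, was above 10 CPM, and *Ptprc* and the haemoglobin genes were at or near 0. The 12 oocyte markers summed to 33968 CPM in NGO, 18372 in GO1 and 27365 in FGO. Across the cells of a stage the granulosa sum correlated with *Fmn2* at −0.05 to 0.23, with *Actr2* at −0.24 to 0.11 and with *Actb* at −0.25 to 0.06. The stroma and theca sum correlated with *Fmn2* at −0.27 to 0.23, with *Actr2* at −0.32 to −0.05 and with *Actb* at −0.43 to 0.17. The blood and endothelium sum correlated with *Fmn2* at −0.33 to 0.02, with *Actr2* at −0.36 to 0.06 and with *Actb* at −0.64, in FGO, to 0.13. The oocyte sum correlated with *Fmn2* at −0.69 in GO2, −0.60 in FGO and −0.25 to −0.10 in the other stages, with *Actr2* at −0.65 to −0.22 and with *Actb* at −0.34 to 0.06. Depth was not removed from these values. Their part in the results was not tested.

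**Figure D5:**
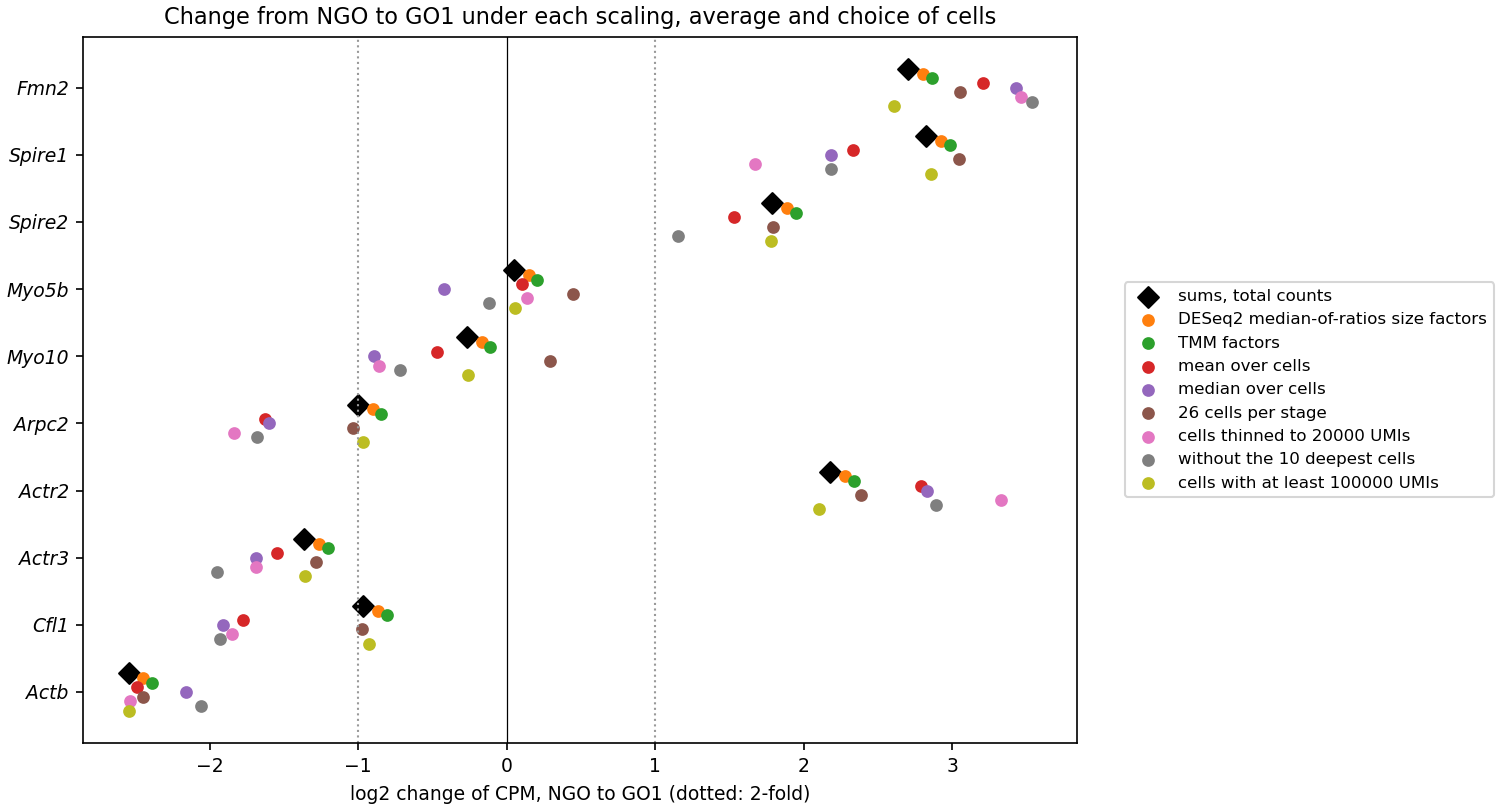
Log2 change of CPM from NGO to GO1 of each member under each scaling, average and choice of cells, with dotted lines at 2-fold. Diamonds are the sums scaled by total counts used in the text. *Fmn2*, *Spire1*, *Actr2*, *Actr3* and *Actb* lie past the dotted lines on one side throughout, while *Arpc2* and *Cfl1* cross the line.

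Scaling bears on these directions, since the median log2 change of all genes from NGO to GO1 was −0.14 with total counts, 0.01 with TMM factors and −0.68 as the median over cells. The split of called genes was 44.5% higher with total counts, 53.2% with TMM factors and 28.4% with the median over cells. *Fmn2*, *Spire1*, *Actr2*, *Actr3* and *Actb* kept direction and call from NGO to GO1 under each scaling, average and choice of cells, with *Fmn2* between 6.11-fold and 11.6-fold, *Spire1* between 3.19-fold and 8.25-fold and *Actr2* between 4.29-fold and 10.03-fold higher. Reads of *Actb*, *Actg1* and *Cfl1* can match close relatives or processed copies elsewhere in the genome, and the treatment of such reads was not given in the sources used here, so the levels of these genes are uncertain in that respect. Another annotated gene overlapped 4 members: *Gm20388* on the same strand as *Spire2*, the pseudogene *Gm2862* on that of *Myo10*, *Gm17669* on the strand opposite *Spire1* and *1700120E14Rik* on that opposite *Myo5b*. Whether counting used the strand was not given in the sources used here.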

How the data were processed

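The authors sorted reads by cell barcode, trimmed and aligned them with Tophat to the mm9 transcriptome, removed duplicates by UMI and deposited raw UMI counts per gene for 223 oocytes that had passed their filters. No further cell filter was applied, and doublets were not called, since oocytes were picked singly. Stage was taken from the cell name in the table. UMIs were summed per stage and scaled to CPM. Intervals are exact Poisson limits, or exact limits of the split of a gene's UMIs between 2 stages or of the UMIs of 2 genes. The rule of 2-fold and 10 CPM was checked on simulated stage sums with counting noise only and planted changes well above 2-fold. That check does not cover calls near either limit, or differences between cells. Named genes were all members, up to 4 genes per list with the largest fold among those called, genes in counts of 5 or fewer, and the 3 nearest profiles. Members and lists were chosen with earlier results of these data known. The cells measured for methylation and accessibility were not used here. Alternatives were DESeq2 1.42.0 size factors, edgeR 4.0.16 TMM factors, the mean or median over cells, 26 cells drawn per stage, cells thinned to 20000 UMIs, sums without the 10 deepest cells, other limits, and cells with at least 100000 UMIs. Python 3.11.15 and R 4.3.3 were used.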

Additional observations from a re-analysis of the deposited data

How the results depend on the processing

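From NGO to GO1 the count of members that rose ranged from 2 to 4 and that of members that fell from 2 to 4. A minimum of 50 CPM in the higher stage gave the 2 members that rose, since *Actr2* stayed under it. Over all 8527 genes, the count that rose ranged from 847 with that minimum to 2555 with a limit of 1.5-fold. The count that fell ranged from 966 with that minimum to 3426 with the median over cells. From GO1 to GO2, where 1 member was called (*Myo10*), DESeq2 size factors and TMM factors gave 0, the mean over cells and the median over cells gave 2, and 26 cells per stage, thinned cells and a limit of 1.5-fold gave 3. *Fmn2* was then called lower with the mean over cells (log2 change −1.57), the median over cells (−1.30), 26 cells (−1.17), thinned cells (−1.79) and without the 10 deepest cells (−1.32). *Myo5b* was called lower with 26 cells (−1.16), and *Cfl1* higher with the median over cells (1.14) and thinned cells (1.07). From GO2 to GO3 thinned cells gave 1 (*Spire2*) and the limit of 1.5-fold gave 1 (*Myo10*), against 0. From GO3 to FGO thinned cells gave 2 and the limit of 1.5-fold gave 3, against 1. Over all 7334 genes from GO2 to GO3, 771 rose and 215 fell with thinned cells, and 768 and 219 with 1.5-fold, against 245 and 74. Over all 7622 genes from GO3 to FGO these counts were 453 and 595, and 742 and 644, against 184 and 270. *Actr2* from GO1 to FGO fell short of 2-fold in cells with at least 100000 UMIs, an alternative chosen after seeing the data. *Actr3* from NGO to FGO fell short with DESeq2 size factors (1.97-fold) and TMM factors (1.85-fold), *Arpc2* was called lower there in thinned cells (2.08-fold), and *Cfl1* was called higher from GO1 to FGO without the 10 deepest cells (2.02-fold). *Actb* from NGO to FGO fell short with the mean over cells (1.98-fold) and the median over cells (1.72-fold), and *Fmn2* passed with TMM factors (2.13-fold), 26 cells (2.15-fold) and thinned cells (2.08-fold). The cause of these shifts was not tested. No called change turned its direction. The median over cells gave no value for *Spire2* where the median cell had 0 UMIs. With 1 pooled sample per stage no replicate could be left out. No paired analysis was possible because no label ties a cell to a library or to a mouse. Low counts limit *Spire2* above all.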
